A study of Mus musculus with 6 samples.

Results

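C-type lectin receptors are the membrane proteins through which macrophages bind sugars and other ligands of microbes and dead cells, and 9 of their genes were followed here: Clec7a, Mrc1, Clec4a1, Clec4d, Clec4e, Clec4n, Clec5a, Clec10a and Clec12a. They were chosen by gene symbol, out of 56092 symbols in the deposited tables, and their transcript rows were summed. Their Ensembl identifiers in these tables are, in the same order, ENSMUSG00000079293, ENSMUSG00000026712, ENSMUSG00000049037, ENSMUSG00000030144, ENSMUSG00000030142, ENSMUSG00000023349, ENSMUSG00000029915, ENSMUSG00000000318 and ENSMUSG00000053063. The cells were RAW264.7, a mouse macrophage-like line, carrying either a control construct (shNC) or a short hairpin against Trem2 (shTrem2), a lipid-sensing receptor of the macrophage surface, with 3 libraries in each group. All 6 libraries came from cells that had received IL-4, a cytokine that drives alternative activation, at 20 ng/mL for 24 hours and then debris of the TCMK-1 tubular epithelial line. The labels call the control an empty vector, whereas the study's methods list a negative-control hairpin under the same name. The constructs were delivered by lentivirus into stable lines that also carry GFP and were selected with puromycin. The labels do not give which of the hairpins against Trem2 the shTrem2 libraries carry, and cells without IL-4, without debris or with a second hairpin line were not analysed here. The labels number the libraries 1 to 3 without naming them as separate cultures, so the p-values measure only the spread between these libraries, which may be technical.

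These receptors differ in how they signal. Dectin-1 (Clec7a), which binds beta-glucan, carries its own activating motif in the cytoplasmic tail and recruits the kinase Syk. Mincle (Clec4e), MCL (Clec4d) and Dectin-2 (Clec4n) borrow the adaptor FcR gamma (Fcer1g), and MDL-1 (Clec5a) borrows DAP12 (Tyrobp) or DAP10 (Hcst). Syk then acts through Card9 on NF-kappaB and through calcium on NFAT. Clec12a carries an inhibitory motif that recruits phosphatases such as Ptpn6. The mannose receptor (Mrc1) and MGL1 (Clec10a), a galactose-type lectin, are mainly endocytic and are widely used as markers of IL-4-treated macrophages, while Clec4a1 belongs to the DCIR group of small lectins.

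Trem2 itself was measured at 114, 122 and 144 CPM (counts scaled to a common effective library size) in the shNC libraries and at 64.7, 63.1 and 80.1 CPM in the shTrem2 libraries. The groups did not overlap, and the log2 fold change was -0.87 (SE 0.094, FDR 3.39e-06). FDR here is the p of the quasi-likelihood test of edgeR after Benjamini-Hochberg adjustment, taken across 13528 genes left by a low-count filter. On the deposited FPKM values, with 0.1 added before the log2, the Trem2 difference was larger, -2.08. Genes with an FDR under 0.05 are said to have risen or fallen, and those that also exceeded a fold change of 1.5 are called. Named genes received 15876061 to 18088372 counts per shNC library and 19358113 to 19655158 per shTrem2 library, so that 3 counts, used as the detection floor, equal 0.154 to 0.186 CPM.

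Of the 9 receptors, 8 passed the filter, and these 8 were all called: Clec7a, Mrc1, Clec4a1, Clec5a and Clec12a rose with the knockdown, whereas Clec4d, Clec4e and Clec10a fell. Clec4n was not detected. Of all genes tested, 57.4% had an FDR under 0.05, 21.8% were called (9.46% higher and 12.4% lower), and in 63.8% the libraries of the 2 groups did not overlap, so a difference of this kind was common in these libraries. None of the 8 receptors overlapped between groups. Their median absolute log2 fold change was 1.14, against 0.31 over all genes tested. Mrc1 and Clec4a1 reached the filter level in 1 and 2 of the shNC libraries and in all 3 shTrem2 libraries. These 2 genes were thus tested only because of their shTrem2 values. In bulk RNA, a change in the number of cells that carry a receptor and a change in RNA per cell cannot be told apart.

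**Figure D1:**
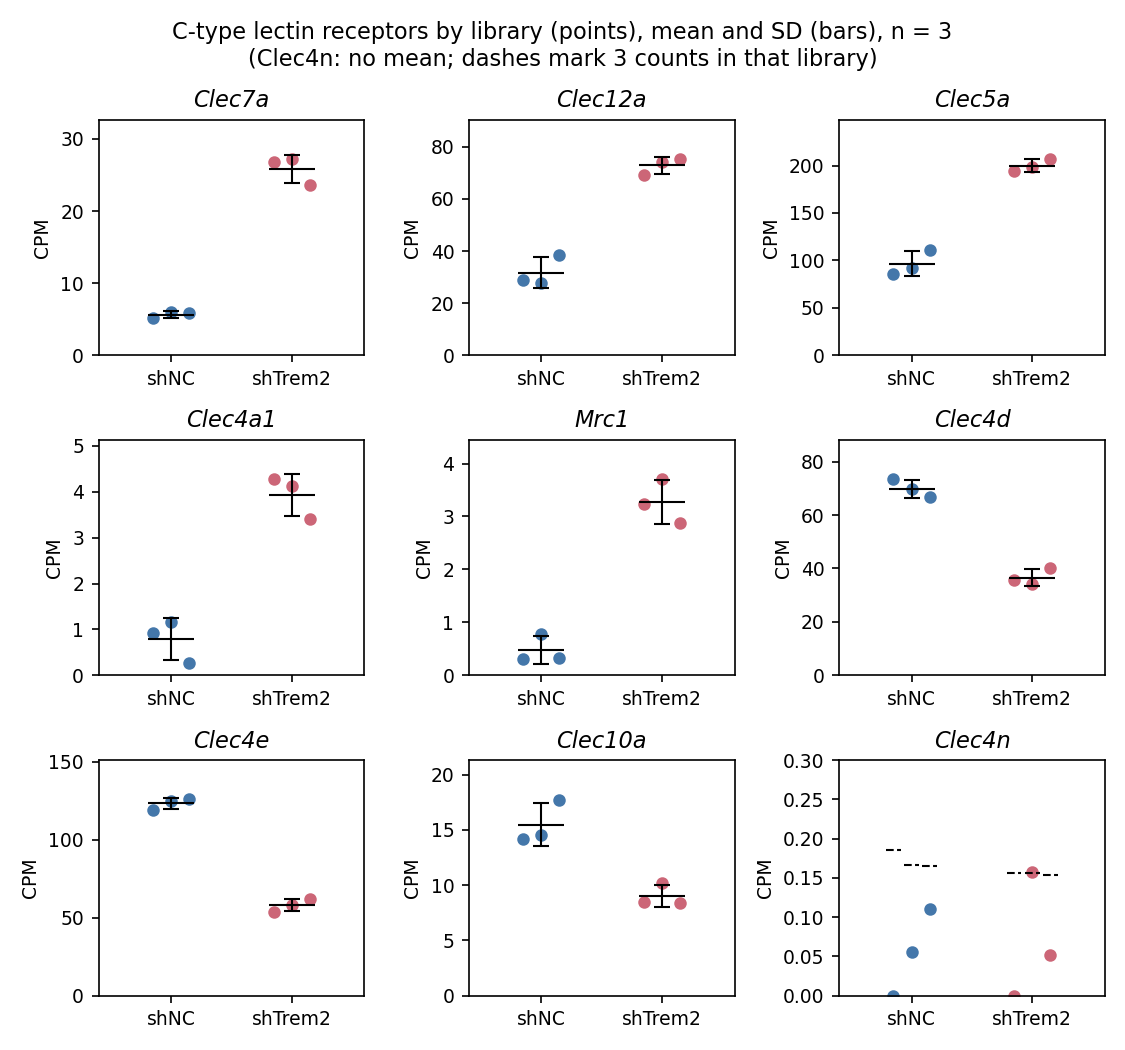
Level of each of the 9 receptors in CPM (linear axis from 0) in the 3 shNC and 3 shTrem2 libraries; points are libraries, and bars are mean and SD. In the 8 tested genes the groups do not overlap, while Clec4n stays at or under 3 counts (dashes) in every library.

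Dectin-1 rose with the smallest FDR of the group. Clec7a stood at 5.09, 5.93 and 5.82 CPM in the shNC libraries and at 26.8, 27.2 and 23.6 CPM in the shTrem2 libraries. The lowest knockdown library thus lay well above the highest control library, and the log2 fold change was 2.20 (SE 0.108, FDR 2.36e-09). The deposited annotation gives the type of this gene as protein_coding_LoF, a class for coding genes whose reference allele is a loss-of-function form. MDL-1, the DAP12 partner, was the riser with the highest FPKM: Clec5a measured 85.6, 92.2 and 111 CPM in shNC and 194, 199 and 207 CPM in shTrem2. Its log2 fold change was 1.06 (SE 0.075, FDR 6.24e-08). The inhibitory receptor Clec12a rose from 28.8, 27.7 and 38.5 CPM to 69.1, 74.2 and 75.4 CPM. Its log2 fold change was 1.20 (SE 0.098, FDR 2.51e-07). For both Clec5a and Clec12a the third control library was the highest of its group, yet it remained far below the lowest knockdown library.

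The start regions of these 3 genes are shown because 2 of the rising receptors, Clec7a and Clec12a, lie in the same gene cluster and the third does not. Each is a RefSeq window on GRCm38.p6 from 250 bases before to 50 bases after an annotated start, read 5′ to 3′ on the gene's strand. The windows are chr6:129472730-129473029 (minus strand) for Clec7a, chr6:129349994-129350293 (plus strand) for Clec12a and chr6:40585756-40586055 (minus strand) for Clec5a. Capitals mark the letters of any of 5 motifs searched on both strands and chosen after the data had been seen: GAGGAA (PU.1), TTC and GAA separated by 4 bases (STAT6), TGANTCA (AP-1), GGG and CC separated by 5 bases (NF-kappaB) and TTGCNNAA (C/EBP).
Clec7a: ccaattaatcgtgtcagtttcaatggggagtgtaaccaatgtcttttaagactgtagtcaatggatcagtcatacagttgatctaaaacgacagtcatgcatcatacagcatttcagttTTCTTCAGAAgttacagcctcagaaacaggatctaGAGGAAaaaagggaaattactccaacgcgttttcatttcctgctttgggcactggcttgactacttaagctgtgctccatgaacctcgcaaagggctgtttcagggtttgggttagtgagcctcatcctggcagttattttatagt
Clec12a: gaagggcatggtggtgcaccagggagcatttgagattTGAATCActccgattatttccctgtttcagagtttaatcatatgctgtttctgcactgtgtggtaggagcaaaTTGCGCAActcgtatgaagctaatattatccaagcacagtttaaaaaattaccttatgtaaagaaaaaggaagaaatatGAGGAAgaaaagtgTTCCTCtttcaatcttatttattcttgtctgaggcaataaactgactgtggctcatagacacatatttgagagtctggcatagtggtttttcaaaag
Clec5a: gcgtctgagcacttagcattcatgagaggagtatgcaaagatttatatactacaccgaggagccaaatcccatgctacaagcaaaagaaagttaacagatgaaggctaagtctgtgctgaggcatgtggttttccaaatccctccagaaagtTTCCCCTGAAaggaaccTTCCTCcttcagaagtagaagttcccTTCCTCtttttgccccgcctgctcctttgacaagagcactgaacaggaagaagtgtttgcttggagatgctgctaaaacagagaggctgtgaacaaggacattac
Clec7a and Clec5a each hold a match to the STAT6 letters, at -131 and -98 from the start, and Clec12a holds the AP-1 letters at -213 and the C/EBP letters at -140. Clec7a has a second annotated window, chr6:129472736-129473035, not printed here. There the STAT6 match lies at -125 and the PU.1 match at -90. All 3 hold the PU.1 letters between -96 and -47.

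The remaining 2 risers were near the limit of detection in the control cells. The mannose receptor gene Mrc1 gave 5, 14 and 6 counts in shNC and 62, 71 and 56 counts in shTrem2, that is 0.310, 0.776 and 0.330 CPM against 3.23, 3.71 and 2.88 CPM. Its log2 fold change was 2.76 (SE 0.342, FDR 1.22e-05). Over the summed counts, 25 against 189, the ratio was 6.85 with an exact 95% binomial interval of 4.50 to 10.9, which covers counting error only. The size depends on the scale: on log2(FPKM + 1) the Mrc1 difference was 0.63 and on log2(FPKM + 0.1) it was 2.08, since the added constant is large beside such low values. Clec4a1 gave 15, 21 and 5 counts in shNC and 82, 79 and 66 in shTrem2, or 0.931, 1.16 and 0.275 CPM against 4.27, 4.12 and 3.40 CPM. The third control library was the lowest. The log2 fold change was 2.31 (SE 0.346, FDR 6.67e-05), and it was 1.35 on log2(FPKM + 1). The ratio of summed counts was 5.02, with an exact 95% binomial interval of 3.58 to 7.18.

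The FcR gamma-coupled pair moved the opposite way. Mincle and MCL are encoded side by side and can associate on the cell surface. Clec4e measured 119, 125 and 126 CPM in shNC and 54.0, 58.3 and 62.1 CPM in shTrem2. All control libraries lay above all knockdown libraries, and the log2 fold change was -1.08 (SE 0.059, FDR 5.59e-09). Clec4d measured 73.4, 69.6 and 66.7 CPM against 35.5, 34.1 and 40.1 CPM. Its log2 fold change was -0.93 (SE 0.069, FDR 1.03e-07). The third gene of this signalling group, Clec4n, had 0, 1 and 2 counts in shNC and 0, 3 and 1 in shTrem2. As no library exceeded 3 counts, Clec4n is reported as not detected in either group, and no fold change was derived. The start windows of the pair, from the same RefSeq table, are chr6:123261857-123262156 (plus strand) for Clec4d and chr6:123289822-123290121 (minus strand) for Clec4e, with the same motifs in capitals.
Clec4d: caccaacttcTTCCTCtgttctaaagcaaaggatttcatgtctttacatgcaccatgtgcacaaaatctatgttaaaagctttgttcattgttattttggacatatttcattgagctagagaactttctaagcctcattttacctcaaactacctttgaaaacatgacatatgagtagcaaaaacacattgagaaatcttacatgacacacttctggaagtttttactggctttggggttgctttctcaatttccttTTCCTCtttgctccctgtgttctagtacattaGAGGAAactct
Clec4e: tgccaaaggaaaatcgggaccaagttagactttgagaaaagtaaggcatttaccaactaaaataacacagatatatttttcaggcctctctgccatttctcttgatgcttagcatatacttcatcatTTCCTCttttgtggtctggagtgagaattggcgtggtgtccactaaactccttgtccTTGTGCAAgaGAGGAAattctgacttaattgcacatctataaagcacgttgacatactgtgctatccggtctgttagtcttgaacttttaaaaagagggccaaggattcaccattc
Both hold the PU.1 letters, and Clec4e also holds a C/EBP match at -66, just before a PU.1 match at -56.

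Windows were found for 7 of the 9 receptors, 8 windows in all, those without one being Clec4n and Clec10a. Below, each receptor is counted once, whereas the shares over the whole table are per window. The PU.1 letters occurred in 7 of these 7 and in 28.3% of all 32851 windows in the table. The STAT6 letters occurred in 3 of 7 (Clec7a, Clec4a1 and Clec5a) and in 6.95% of all windows. The C/EBP letters were in 2 of 7 against 10.8%, the AP-1 letters in 1 of 7 against 7.81%, and the NF-kappaB letters in 2 of 7 (Mrc1 and Clec4a1) against 50.8%. These matches describe letters in a window, not bound sites.

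MGL1 fell as well. Clec10a measured 14.2, 14.5 and 17.7 CPM in shNC and 8.49, 10.2 and 8.39 CPM in shTrem2. The groups did not overlap, and the log2 fold change was -0.78 (SE 0.126, FDR 0.000127), the largest FDR among the 8 tested receptors. The neighbouring paralog Mgl2, which lies just before Clec10a in the annotation and encodes the other galactose-type lectin, rose from 0.538 ± 0.133 CPM to 1.45 ± 0.236 CPM (SD, n = 3; log2 fold change 1.43, FDR 0.00329). Mgl2 passed the filter only through the shTrem2 libraries. In the deposited FPKM its groups overlapped, at 1.71, 0.49 and 0.30 in shNC and 2.09, 3.01 and 0.99 in shTrem2. Reads of such near copies can be assigned to either gene, so the values of Clec10a and Mgl2 are uncertain to that degree.

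Levels of different genes were compared in FPKM, which corrects for transcript length. In the control cells the order was Clec4d at 77.2 ± 3.96 FPKM (SD, n = 3), Clec4e at 68.9 ± 4.67, Clec5a at 66.3 ± 9.57, Clec12a at 15.1 ± 2.86, Clec10a at 13.9 ± 3.55, Clec7a at 3.43 ± 0.392, Clec4a1 at 0.643 ± 0.379 and Mrc1 at 0.09 ± 0.052 FPKM. The libraries of Clec5a overlapped those of both Clec4d and Clec4e, and those of Clec12a overlapped those of Clec10a. Within each shNC library Clec12a lay above Clec10a, narrowly in the third (18.38 against 18.00 FPKM). Clec5a lay below Clec4d and Clec4e in the first and second shNC libraries and above both in the third. The top of the control order is thus not settled. In the knockdown cells the order was Clec5a at 139 ± 10.7 FPKM, Clec4d at 38.6 ± 3.46, Clec12a at 33.9 ± 1.89, Clec4e at 28.3 ± 2.96, Clec7a at 17.6 ± 1.77, Clec10a at 7.80 ± 1.40, Clec4a1 at 3.12 ± 0.35 and Mrc1 at 0.687 ± 0.0907 FPKM, with no overlap between neighbours. Clec5a thus stood alone at the top of the knockdown cells, and Clec7a, below Clec10a in the controls, came to lie above it.

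**Figure D2:**
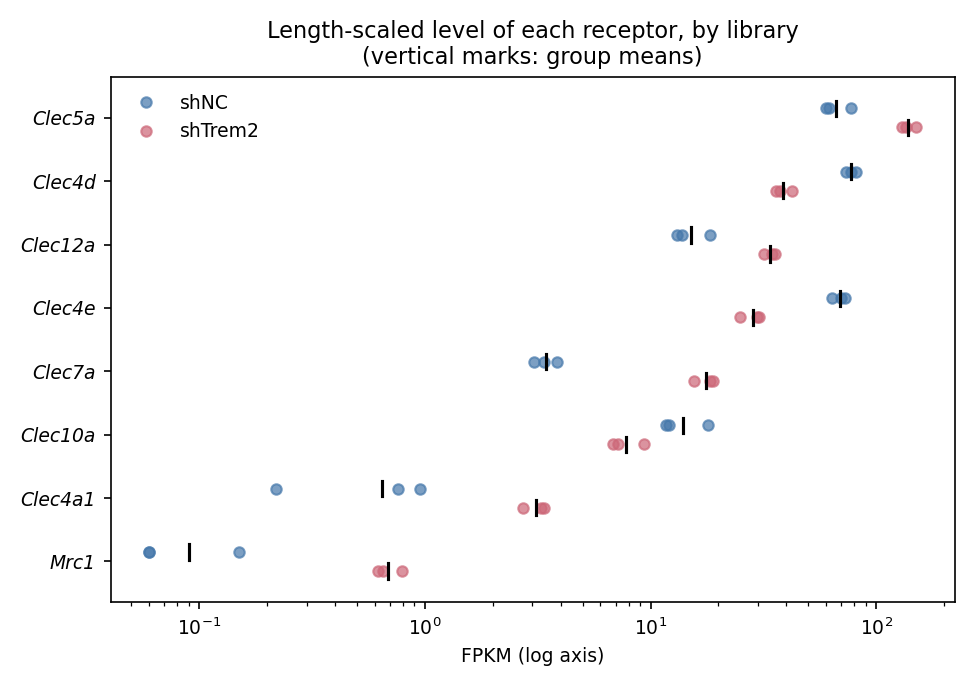
Deposited FPKM of the detected receptors on a log axis in the shNC and shTrem2 libraries; points are libraries and vertical marks group means. Clec5a rises from 66.3 to 139 FPKM while Clec4d and Clec4e fall from 77.2 to 38.6 and from 68.9 to 28.3 FPKM.

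The sum over the 9 genes was 246 ± 7.61 FPKM in shNC and 269 ± 12.6 FPKM in shTrem2 (SD, n = 3), with libraries at 240 to 254 and at 259 to 283 FPKM. Within that sum the share of Clec5a was 26.9% in shNC and 51.6% in shTrem2. Clec4d went from 31.5% to 14.4% and Clec4e from 28.1% to 10.5%, while Clec12a went from 6.13% to 12.6%, Clec7a from 1.40% to 6.57% and Clec10a from 5.64% to 2.91%. The ratio of Clec5a to Clec4e was 0.971 ± 0.210 in shNC and 4.93 ± 0.589 in shTrem2. The ratio of Clec5a to Clec12a was 4.42 ± 0.252 in shNC and 4.10 ± 0.375 in shTrem2, with overlapping libraries, and the ratio of Clec4e to Clec4d was 0.893 ± 0.0427 and 0.736 ± 0.0976. With 3 libraries against 3, an exact two-sided permutation test of such a ratio cannot go below p = 0.1, so these are given as values.

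The position of the genes was read from the RefSeq gene order, whose assembly is not the GRCm39 build of the deposited files, so gene order alone was used. Mrc1 lies on chromosome 2, Clec10a on chromosome 11 and the other 7 receptors on chromosome 6. One stretch there runs Clec4a1, Clec4a3, Clec4a4, Clec4b1, Clec4a2, Clec4b2, Clec4n, Clec4d, Clec4e, and it split by position. Of its 9 genes 5 were tested and 5 were called, against 21.8% of all genes tested. Clec4a1 and Clec4a2 were tested only because of their shTrem2 values, as they reached the filter level in 2 and 0 of the shNC libraries. Clec4a1, Clec4a3 and Clec4a2, at the end that holds the DCIR genes, rose, and Clec4d and Clec4e, at the far end, fell. Clec4a3 went from 1.45 ± 0.321 to 5.07 ± 0.970 CPM (log2 fold change 1.80, SE 0.240, FDR 2.35e-05). Clec4a2, which encodes DCIR, an inhibitory receptor, had 7 counts over the shNC libraries and 228 over the shTrem2 libraries, a ratio of 29.5 (exact 95% binomial interval 14.1 to 74.2; FDR 4.2e-07). Clec4a1, Clec4a2 and Clec4a3 are close copies, so the split of reads between them is uncertain. Necap1, an endocytic adaptor gene just outside this stretch beside Clec4a1, had a log2 fold change of -0.05 (FDR 0.513).

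The second stretch runs Clec2d, Cd69, Clec2m, Clec12a, Clec12b, Clec1b, Clec9a, Clec1a, Clec7a, Olr1, and 5 of its 10 genes were tested. The 3 called genes, Clec12a, Clec1a and Clec7a, all rose, while 21.8% of all genes tested were called. Clec1a had 4 counts over the shNC libraries against 64, a ratio of 14.5 with a wide exact 95% binomial interval of 5.39 to 54.8 (FDR 5.94e-05), and it passed the filter only through the shTrem2 libraries, as did Clec4a2. The other two tested genes, Clec2d (log2 fold change 0.91, FDR 0.0658) and the activation marker Cd69 (-0.80, FDR 0.106), did not pass. Clec5a lies apart from both stretches.

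Rows for single transcripts were compared where a fit of annotated transcript lengths to the deposited FPKM matched them to transcripts, so the names are inferred. Clec5a was divided between Clec5a-201, a processed transcript without a coding sequence, and the coding Clec5a-202. Clec5a-201 rose from 51.6 ± 2.94 to 95.0 ± 6.60 CPM and its share of the gene was 54.0% ± 4.39 in shNC and 47.5% ± 2.40 in shTrem2. Clec5a-202 went from 35.6 ± 7.97 to 80.5 ± 6.86 CPM, and Clec5a-203, also coding, from 6.57 ± 2.42 to 19.8 ± 1.72 CPM, so in all of these rows the knockdown libraries lay above the control libraries. Nearly all of Clec12a came from the coding Clec12a-201, at 30.2 ± 5.22 and 69.3 ± 3.30 CPM. In Clec4d, both the coding Clec4d-201 (61.6 ± 3.44 against 33.0 ± 2.99 CPM) and Clec4d-203, a transcript annotated for nonsense-mediated decay (7.83 ± 0.376 against 3.45 ± 0.582 CPM), were lower without overlap. Assignment of reads to transcripts of one gene is itself an estimate, and no test was run on these rows.

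Beyond the 9 receptors, a list of 44 further lectin-family genes had 12 that were tested. Of these, 8 had an FDR under 0.05, against 57.4% of all genes tested. Of the 12, 5 were called higher and 1 lower, against 21.8% called of all genes tested. Their median log2 fold change was 0.73, and the median over all genes tested was near 0. Clec1a, Clec4a2, Mgl2 and Clec2d were tested only through the shTrem2 libraries, and Cd69 and Cd93 only through the shNC libraries. The median of the list thus depends in part on the filter. Besides Clec4a2, Clec1a, Clec4a3 and Mgl2, the scavenger receptor gene Colec12 rose, from 131 ± 9.02 to 246 ± 25.4 CPM (log2 fold change 0.90, FDR 1.66e-07). Cd93, a group XIV lectin-domain protein, fell from 1.15 ± 0.183 to 0.191 ± 0.160 CPM (log2 fold change -2.55, FDR 0.000714). Cd72, an inhibitory lectin-like receptor, rose by less than 1.5-fold, from 248 ± 3.66 to 367 ± 43.5 CPM (log2 fold change 0.57). The other 32 genes were not tested, and 26 were at or under 3 counts in every library. Of the 6 called, 3 rising genes (Clec4a2, Clec1a and Mgl2) and Cd93 passed the filter only through the group in which they were higher.

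The adaptors and kinases next to the receptors numbered 17. All 17 were tested, and 12 had an FDR under 0.05, against 57.4% of all genes tested. Of the 17, 2, or 11.8%, passed the fold threshold as well, against 21.8% of all genes tested. Src, a proximal tyrosine kinase, rose from 1.39 ± 0.207 to 3.84 ± 0.289 CPM (log2 fold change 1.46, FDR 9.41e-05). Vav2, an exchange factor, fell with a log2 fold change of -0.62 (FDR 7.94e-05). Tyrobp, the DAP12 partner of Clec5a, went from 129 ± 3.57 to 192 ± 9.16 CPM (log2 fold change 0.57, FDR 4.2e-07). Fcer1g, the partner of Clec4d and Clec4e, rose while both of these receptors fell, from 146 ± 2.51 to 182 ± 2.22 CPM (log2 fold change 0.32, FDR 2.64e-05). Hcst had a log2 fold change of -0.52 (FDR 0.0588) and did not pass. Syk rose by 0.38 on the log2 scale (FDR 0.000671). The count of 2 called genes in this list was 1 without the third shNC library or without the first shTrem2 library, and 4 without the second shTrem2 library.

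Further down, 1 of the 13 genes of the CARD9 and calcium-NFAT branch was called, against 21.8% of all genes tested. It was the transcription factor gene Nfatc1, which rose from 76.7 ± 0.842 to 150 ± 5.06 CPM (log2 fold change 0.97, FDR 2.62e-09). Card9 had a log2 fold change of 0.03 (FDR 0.634), with overlapping groups. None of 8 phosphatase and ubiquitin-regulator genes passed the fold threshold, although 4 had an FDR under 0.05, against 57.4% of all genes tested. Among them Ptpn6, which encodes the phosphatase SHP-1, fell from 534 ± 7.24 to 393 ± 9.40 CPM (log2 fold change -0.44, FDR 1.1e-06).

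Of 16 genes that these receptors are known to induce, 11 were tested, 7 were called lower and 1 higher, and the median log2 fold change was -0.72. Called genes thus made up 72.7% of those tested, against 21.8% of all genes tested. Il1b, Il6, Il10, Il12b and Cxcl1 had too few counts to be tested. Cxcl2 (log2 fold change 0.07, FDR 0.571) and Egr3 (0.31, FDR 0.128) did not pass, and Egr2 rose by less than 1.5-fold (0.40, FDR 0.0328). Ptgs2, the inducible cyclooxygenase, fell most, from 251 ± 64.7 to 22.2 ± 0.870 CPM (log2 fold change -3.50, FDR 1.12e-09). The chemokine gene Ccl3 fell from 819 ± 79.6 to 195 ± 21.5 CPM (-2.07, FDR 4.61e-10), the cytokine gene Il23a from 1.63 ± 0.341 to 0.432 ± 0.0760 CPM (-1.90, FDR 0.000433; it passed the filter only through shNC, where it was higher) and Tnf from 320 ± 21.7 to 153 ± 15.1 CPM (-1.07, FDR 2.88e-08). The NF-kappaB genes Nfkbia, Nfkb2 and Relb also fell, with log2 fold changes of -0.87, -0.70 and -0.72. Cxcl10, an interferon-induced chemokine gene, was the gene called higher, at 1.20 (FDR 0.00309). These genes answer to many receptors, and what moved them was not tested.

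Among 15 genes of alternative activation other than the receptors, 9 were tested, 2 were called higher and 4 lower, with a median log2 fold change of 0.07. Called genes thus made up 66.7% of those tested, against 21.8% of all genes. Il4i1, an amino acid oxidase gene, fell from 62.1 ± 3.63 to 6.98 ± 1.15 CPM (log2 fold change -3.15, FDR 8.54e-11), and Cish, a feedback inhibitor of cytokine signalling, from 58.1 ± 2.93 to 11.7 ± 0.881 CPM (-2.31, FDR 9.87e-11). The chemokine gene Ccl22 fell by 2.34 on the log2 scale and Il4ra, a subunit of the IL-4 receptor, by 1.37. Tgm2, a transglutaminase gene, rose by 2.12 (FDR 5.73e-05), alongside Mgl2. Ccl22 was tested only through the shNC libraries and Mgl2 only through the shTrem2 libraries, in which each was higher. The 6 untested genes, Arg1, Chil3, Retnla, Ccl17, Ccl24 and Pparg, were at or under 3 counts in every library. Arg1 was among these although the series describes the cells as Arg1+, and several other defining genes of alternative activation were likewise not detected beside Mrc1 and Clec10a.

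**Figure D3:**
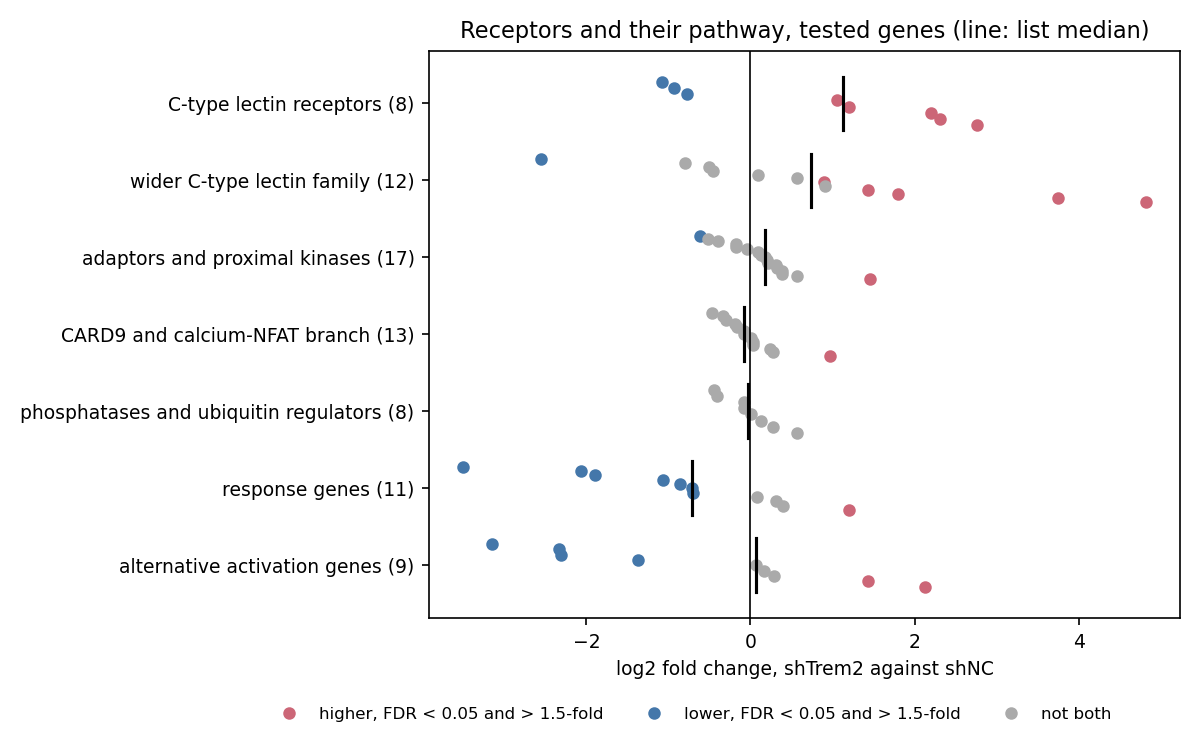
Log2 fold change (shTrem2 against shNC) of every tested gene in the receptor list and the 6 related lists, one point a gene, with the list median as a line. The 8 receptors lie on both sides of 0, the adaptors range from Vav2 at -0.62 to Src at 1.46, the CARD9 branch reaches Nfatc1 at 0.97, and the response genes lie mostly below.

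The annotation deposited with the counts places Clec7a, Clec4d, Clec4e and Clec4n in the KEGG C-type lectin receptor signaling pathway. Without these, 82 of its 107 genes were tested, and 22 of them, or 26.8%, were called, 7 higher and 15 lower, against 21.8% of all genes. This pathway was looked at after the values had been seen.

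Macrophage markers were present throughout, with 8 of 9 tested and a summed level of 5424 to 6404 CPM in shNC and 10468 to 11837 CPM in shTrem2. Lyz2, Csf1r and Fcgr1 rose and Itgam fell past both thresholds, so called markers made up 50% of those tested, against 21.8% of all genes tested. Within the sum, Lyz2 alone went from 2802 ± 355 to 7357 ± 544 CPM. Adgre1 fell by less than 1.5-fold (log2 fold change -0.56, FDR 3.54e-05). These markers thus moved with the groups, in both directions. Mertk was at or under 3 counts in every library. Of 5 dendritic cell markers only Zbtb46 was tested (log2 fold change -0.84), their sum was 7.97 to 8.50 CPM in shNC and 3.80 to 5.51 CPM in shTrem2, and Flt3 and Cd209a were at 0. The 6 neutrophil, 4 fibroblast and 4 lymphocyte markers had no tested gene. Of 10 tubular epithelial markers 1 was tested, Aqp1, which rose (log2 fold change 2.30) and had passed the filter only through the shTrem2 libraries. The sum over the 10 was 0.665 to 1.18 CPM in shNC and 2.11 to 2.77 CPM in shTrem2. Aqp1 alone gave 0.451 ± 0.256 and 2.20 ± 0.356 CPM of it. Lrp2, which was not tested, went the other way, from 0.363 ± 0.0816 to 0.139 ± 0.0309 CPM. Of these markers 6, including Cdh1, Epcam, Krt8 and Krt18, were at 0 in every library. The part of these marker shifts in the receptor changes was not tested.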

How the data were processed

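Poly(A) RNA of RAW264.7 cells was sequenced as stranded paired-end libraries, 3 per group. Per the labels, the submitters' processing notes name fastp, HISAT2, StringTie and the GRCm39 build; versions are not given in the sources used here. The authors deposited estimated counts per transcript (79.3% of the nonzero values are not whole) and FPKM values, rounded to 2 decimals. Transcript rows of estimated counts were added up by symbol, then rounded; transcripts lacking a symbol held 0.908% to 1.12% of counts and stayed out. The 13528 genes passing filterByExpr were tested with edgeR 4.0.16 (R 4.3.3; TMM, quasi-likelihood, no covariates). SE is the absolute log2 fold change divided by the square root of F. DESeq2 1.42.0 and limma 3.58.1, other scalings, filters and thresholds, FPKM-based fits, a replicate block and each library left out served as alternatives. The study's methods state strand-aware alignment; whether counting also used strand is not given in the sources used here. The fits were tested on simulated data.

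The receptors, lists and tests were chosen with earlier results of these data known. Named genes are the 9 receptors, Trem2, Fcer1g, Tyrobp, Hcst, Syk, Card9 and up to 6 called genes per list by absolute log2 fold change. Called lectin genes of the chromosome 6 stretches, annotated neighbours and the gene with the nearest profile are also named. Others were added after their values were seen. These are Cd72, Ptpn6, Clec2d, Cd69, Nfkb2, Relb, Cxcl2, Egr2, Egr3, Adgre1, Lrp2 and the transcript rows described. Transcript rows were matched to GENCODE M21, an annotation of GRCm38, through the order of its transcripts whose corrected lengths best rebuilt the deposited FPKM. The largest error was 0.827% for Clec5a, 0.764% for Clec4d and 0.430% for Clec12a. Replicate libraries differed by more than counting noise. Intervals and floors cover counting error only.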

Additional observations from a re-analysis of the deposited data

How the results depend on the processing

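For the 8 tested receptors, all 134 refits of the log2 fold change kept their direction and their side of the FDR threshold. The count of called receptors was 8 in each alternative except the filter of at least 10 counts in every library, where it was 6 because Mrc1 and Clec4a1 were no longer tested, and the fold threshold of 2, where it was 6 because Clec4d and Clec10a lay under it. The stricter filter also left 2 called genes in the wider lectin family in place of 6. With a fold threshold of 2, the called genes numbered 1339 of all genes in place of 2951, 1 of the adaptors and proximal kinases in place of 2, 0 of the CARD9 branch in place of 1 and 5 of the response genes in place of 8. On log2(FPKM + 1), 1 adaptor or kinase was called lower, and it was neither Src nor Vav2. On log2(FPKM + 0.1), 2 were called, of which 1 was shared with the main fit. On the same scale 5 alternative activation genes were called in place of 6, with 1 higher in place of 2. Leaving out one library at a time gave 1 to 4 called adaptors and kinases. The share of higher calls was 43.4%, and 39.0% with library size alone. Same-numbered libraries did not deviate together (correlations 0.00618, -0.00441 and 0.00657). This cannot tell whether they were prepared together, which the labels do not give. With the replicate block 8 receptors and 2911 genes were called. Depth limits Clec4n, at most 3 counts in any library, and the size of the Mrc1, Clec4a1, Clec4a2 and Clec1a changes.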

Other observations

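For each tested receptor, the gene with the most similar profile was taken as the one with the smallest root mean square difference of centred log2 CPM over the 6 libraries, among tested genes whose log2 CPM averaged 1 or more. For Clec7a this was Scel (difference 0.0906), which went from 32.8 to 135 CPM. For Clec5a it was Fes (0.0453), a tyrosine kinase gene that went from 62.8 to 130 CPM, and for Clec12a it was Il13ra1 (0.0705), a subunit of the IL-4 and IL-13 receptor, from 39.8 to 92.1 CPM. Clec4e was nearest to Tcea2 (0.0277), Clec4d to Myo1d (0.0368), an unconventional myosin gene, and Clec10a to the long non-coding RNA Neat1 (0.0588), from 967 to 559 CPM. The likeness was looser for the low-count genes, Mrc1 with Dusp1 (0.315) and Clec4a1 with Id3 (0.478). These profiles rest on 2 groups of 3 libraries.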
